A study of Mus musculus with 24 samples.

Results

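The transcripts of the constitutive proteasome were described in kidney cortex of aged mice with and without FGF21, on a low or a normal protein diet. All rows of the expression table whose symbol begins with Psma, Psmb, Psmc, Psmd or Psme followed by a digit were taken, without the 3 immunoproteasome genes Psmb8, Psmb9 and Psmb10. This gave 41 of 16921 genes. They were 7 genes of the 20S alpha ring, 7 of the 20S beta ring, 6 of the 19S ATPases, 11 of the 19S non-ATPases, 3 of the 19S assembly chaperones and 4 of the activators. The other rows were Psma8, a testis form of an alpha subunit, Psmc3ip, a meiotic recombination factor, and Psme2b, a copy of Psme2.

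Kidney cortex came from male C57BL6/J mice aged 22 months, in 4 groups of 6 mice with 1 library each. KO_LP mice were FGF21 knockouts on a diet with 5% casein, KO_NP mice were knockouts on 20% casein, and WT_LP and WT_NP mice were wild type on the same diets. Every mouse ate its diet freely from 3 months of age. The design asks what long protein restriction does to the aged kidney with and without FGF21, a hormone that the liver secretes when dietary protein is low. The knockout rests on the labels, since the counts used here held no row for Fgf21. Neither the deletion's construction nor its tissue range is stated in the labels.

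Libraries tagged the 3′ end of each transcript and held 8469102 to 21063652 counts each. Values are given in CPM, counts scaled to a common library total with library factors, and differences as log2 folds with standard errors (SE) from edgeR's quasi-likelihood fit over all 24 libraries. Adjusted p-values are Benjamini-Hochberg values over 15165 genes, and a gene was called where its adjusted p was under 0.05. Markers of the proximal tubule, the main cell type of cortex, were abundant, and their 8 genes summed to between 13853 and 37115 CPM per library. The libraries KO_LP 4, WT_LP 3 and WT_NP 1 stood apart in their groups, with the most immunoproteasome transcript. Values without them are given for the medians over the members, the activators, the immunoproteasome genes and the immune markers. No batch is named in the labels, and sequencing indices run in the order of the groups, so any batch along that order cannot be told apart from diet or genotype.

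The proteasome is the barrel-shaped protease that degrades proteins tagged with ubiquitin. Its 20S core stacks outer alpha rings, which gate the entrance, on inner beta rings that carry the proteolytic sites, and a 19S cap with an ATPase ring and a lid recognises, unfolds and feeds in the substrate. Subunit genes are widely expressed and can be raised together by the transcription factor Nfe2l1 when proteasome capacity is short, whereas interferon signalling raises the immunoproteasome beta subunits and the activator pair Psme1 and Psme2.

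Promoters of 34 of the 41 members were matched by symbol in RefSeq (GRCm38.p6), in windows of 250 bases before to 50 after the annotated start. The windows below are shown because the activator genes Psme1 and Psme2 had the highest diet folds of the subunit, chaperone and activator genes in knockouts, and because Psmb5 and Psmb6 encode catalytic subunits. Capitals mark GAAA followed after any 2 bases by a further GAAA, a form of the interferon-stimulated response element, in Psme1 (on the reverse strand) and TGACNNNGC, a core of the antioxidant response element, in Psmb5 and Psmb6.

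Psme1, chr14:55578244-55578543, plus strand: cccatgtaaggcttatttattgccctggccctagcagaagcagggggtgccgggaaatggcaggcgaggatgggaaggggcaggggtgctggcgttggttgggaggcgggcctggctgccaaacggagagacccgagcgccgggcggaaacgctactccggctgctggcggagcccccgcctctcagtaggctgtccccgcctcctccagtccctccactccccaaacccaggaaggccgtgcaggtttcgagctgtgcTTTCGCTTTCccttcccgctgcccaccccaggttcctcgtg
Psme2, chr14:55591052-55591351, minus strand: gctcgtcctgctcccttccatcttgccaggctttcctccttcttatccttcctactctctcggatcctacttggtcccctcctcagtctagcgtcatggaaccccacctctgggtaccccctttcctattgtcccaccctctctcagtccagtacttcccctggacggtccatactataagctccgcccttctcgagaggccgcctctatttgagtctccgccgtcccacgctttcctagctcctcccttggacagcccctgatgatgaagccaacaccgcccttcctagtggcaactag
Psmb5, chr14:54617946-54618245, minus strand: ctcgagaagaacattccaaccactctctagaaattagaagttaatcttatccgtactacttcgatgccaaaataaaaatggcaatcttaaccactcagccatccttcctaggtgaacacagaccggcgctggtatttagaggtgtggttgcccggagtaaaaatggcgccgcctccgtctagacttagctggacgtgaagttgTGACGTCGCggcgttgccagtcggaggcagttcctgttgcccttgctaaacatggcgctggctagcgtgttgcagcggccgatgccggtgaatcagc
Psmb6, chr11:70525107-70525406, plus strand: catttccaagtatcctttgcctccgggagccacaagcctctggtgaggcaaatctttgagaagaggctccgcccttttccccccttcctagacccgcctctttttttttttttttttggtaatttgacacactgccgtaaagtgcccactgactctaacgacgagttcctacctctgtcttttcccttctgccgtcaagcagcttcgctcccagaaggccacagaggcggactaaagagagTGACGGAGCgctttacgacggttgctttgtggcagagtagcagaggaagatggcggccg

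The interferon-stimulated form occurred on either strand in 3.44% of 32851 RefSeq windows and in those of Psmb3, Psmd4, Psmd9 and Psme1. TGACNNNGC occurred in 12.4% of the windows and in 6 of the 34 matched members, Psmb5, Psmb6, Psmc6, Psmd12, Psmd9 and Psme4. The gamma-activated site TTCNNNGAA, searched on both strands, occurred in 8.30% of windows and among members in Psmd2. Psme2 had a further window from another annotated start (chr14:55590972-55591271), not printed above, with no match to these forms. A match describes letters and not a bound site.

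The 38 subunit, chaperone and activator genes were expressed in every library. Their mean CPM ran between 18.0 for Psmb2, a beta ring subunit, and 267 for Psma7, an alpha ring subunit, on a scale of 3′ tags that is not divided by transcript length. The alpha ring spanned 26.0 CPM (Psma5) to 267 CPM (Psma7), the beta ring 18.0 CPM (Psmb2) to 244 CPM (Psmb4), the ATPases 63.6 CPM (Psmc5) to 164 CPM (Psmc3) and the non-ATPases 59.4 CPM (Psmd12) to 214 CPM (Psmd3). Psma8 had 0 to 11 counts per library and lay below the filter on low counts, so 40 of 41 members were tested. The within-group SD of log2 CPM had a median of 0.14 over the 38 genes, beside 0.17 over the 5930 tested genes in the same CPM range. It was lowest for the ATPase Psmc3 (0.09) and highest for the chaperone Psmd5 (0.27).

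The members together took 0.548 ± 0.0255% of non-mitochondrial counts in KO_LP, 0.544 ± 0.0162% in KO_NP, 0.543 ± 0.00854% in WT_LP and 0.550 ± 0.0116% in WT_NP (mean ± SD, n = 6 each). On this measure the means differed from each other by less than the SD of any group. Mitochondrially encoded genes took 18.5 to 26.3% of counts in KO_LP and 26.4 to 30.5% in KO_NP. In WT_LP they took 24.2 to 27.2% and in WT_NP 21.8 to 27.2%. Of all counts, the members took 0.422 ± 0.0248% in KO_LP, 0.392 ± 0.0120% in KO_NP, 0.403 ± 0.00736% in WT_LP and 0.410 ± 0.0124% in WT_NP. In these bulk samples, fewer cells of a type and less RNA per cell cannot be told apart.

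The low protein diet in the knockout was the comparison with the largest share of called genes. No member was called in KO_LP against KO_NP by edgeR's quasi-likelihood test, which called 7.17% of all genes tested. At an unadjusted p under 0.05, 11 of 40 members (27.5%) differed, a share close to the 27.9% of all genes. The members at that level were Psme1 and Psme2, which were higher, and Psmd13, Psmc4, Psmb3, Psme3, Psmc5, Psmd2, Psmb7, Psmc3 and Psmd1, which were lower.

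Members leaned to lower values on the low protein diet in the knockout after scaling with the library factors. These factors ran from 0.963 to 1.24 in KO_LP and from 0.881 to 0.985 in KO_NP. Before that scaling, the members' mean share of all counts was higher in KO_LP (0.422%) than in KO_NP (0.392%). Their mean share of non-mitochondrial counts was 0.548% in KO_LP and 0.544% in KO_NP. Log2 folds were below 0 for 31 of 40 members, with a median of −0.08. Over all genes tested 45.1% were below 0 and the median was 0.03, while among the 5930 genes of the same CPM range 56.4% were below 0 with a median of −0.03. The lean depended on the fit. With 1 surrogate variable added, a term estimated from all genes that stands for unlabelled variation, 13 of 40 members were below 0 and the median was 0.04. Without the library KO_LP 4 it was 30 of 40, and without KO_LP 4, WT_LP 3 and WT_NP 1, a choice made after the data were seen, it was also 30 of 40. The median moved more than the count, to −0.05 without KO_LP 4 or without the 3 libraries and to −0.13 without KO_NP 3.

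The errors set narrow bounds on these differences. For all 38 subunit, chaperone and activator genes, the 95% confidence interval of the KO_LP over KO_NP ratio lay within 1.5-fold (log2 of 0.58) in either direction. The lowest bound was −0.43 and the highest 0.52. Of the genes in the same CPM range, 82.3% had an interval within these bounds, and of all genes tested 56.8%.

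**Figure D1:**
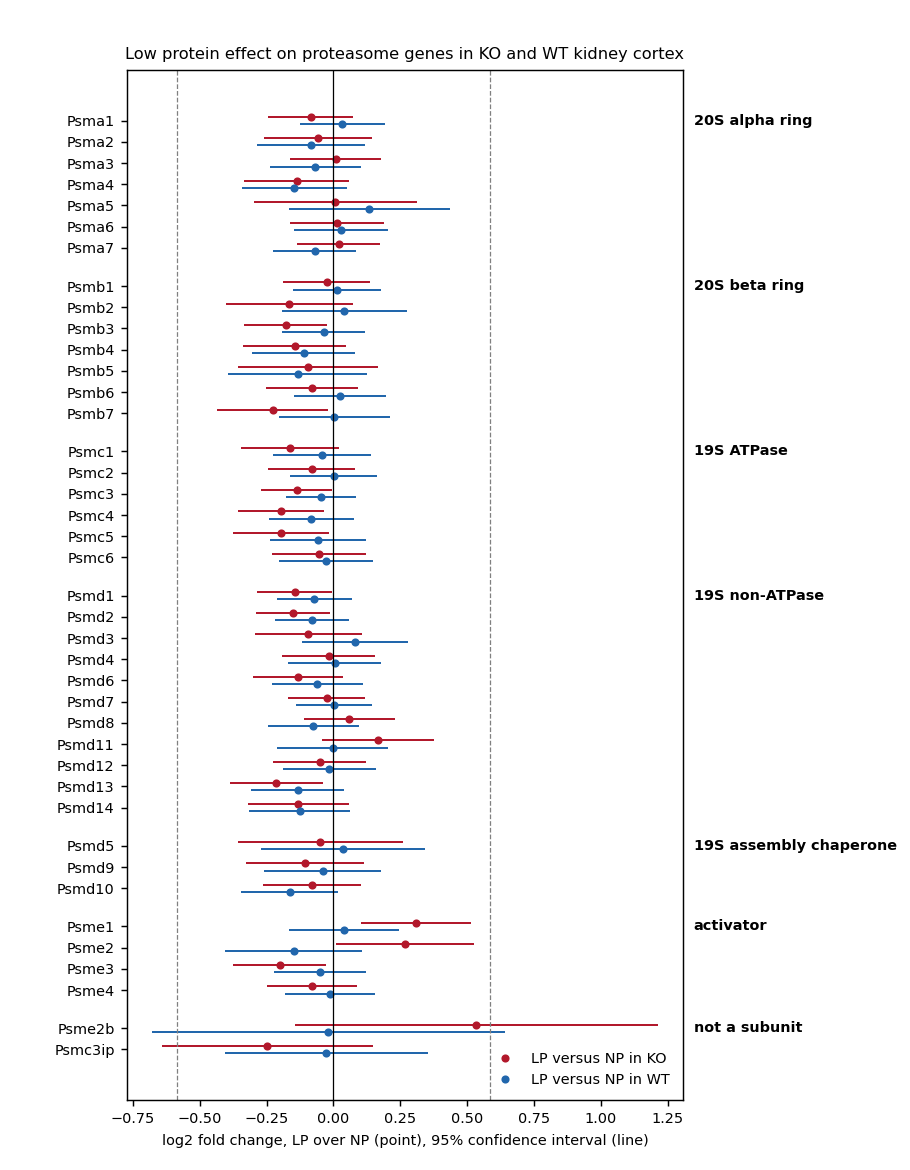
Log2 fold changes of LP over NP (points) with 95% confidence intervals (lines) for the 40 tested members, by role, in KO (red) and WT (blue) kidney cortex. Dashed lines mark 1.5-fold; among subunits, chaperones and activators every interval lies between them, and Psme1 and Psme2 are the highest points in KO apart from the low-count copy Psme2b.

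The roles differed in where their folds lay, as a description of 3 to 11 genes each. In KO_LP against KO_NP the 6 ATPases, which form the unfolding ring of the cap, were all lower, with folds of −0.20 to −0.05 and a median of −0.15. The 7 beta ring genes were all lower, with folds of −0.23 to −0.03 and a median of −0.14. Of the 11 non-ATPases, 9 were lower (median −0.09). Of the 7 alpha ring genes, 3 were lower, with folds of −0.14 to 0.02 and a median of 0.01. Alpha and beta subunits are built into the core in equal numbers. The alpha ring count depended on the scaling, with 5 of 7 lower under DESeq2 size factors and 7 of 7 under limma voom with quality weights. With the surrogate variable, 4 of the 6 ATPases, 3 of the 7 beta ring genes and none of the 7 alpha ring genes were lower.

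Psmb5, Psmb6 and Psmb7 encode the subunits with the chymotrypsin-like, caspase-like and trypsin-like sites. Psmb5 (chr14:54614119-54618022, minus strand, GRCm38) had a lowest, median and highest value of 18.1, 23.1 and 33.9 CPM in KO_LP, against 23.9, 26.6 and 28.6 CPM in KO_NP. In wild type it had 20.0, 24.1 and 29.0 CPM in WT_LP, against 20.6, 28.1 and 30.8 CPM in WT_NP. The spread was widest in KO_LP, where library 4 was lowest and library 6 highest, and all groups overlapped. Log2 folds were −0.09 (SE 0.126, adjusted p = 0.658) for LP over NP in KO and −0.13 (SE 0.124, adjusted p = 1) in WT, and their difference was 0.04 (adjusted p = 0.929). Single libraries moved the fold in KO, to −0.21 without KO_LP 6 and to −0.02 without KO_LP 4. KO over WT was 0.00 on LP (adjusted p = 0.989) and −0.03 on NP (adjusted p = 0.935).

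Psmb6 (chr11:70525367-70527858, plus strand) had 122, 141 and 157 CPM in KO_LP, against 135, 149 and 163 CPM in KO_NP. Wild type values were 121, 143 and 155 CPM in WT_LP, against 122, 136 and 157 CPM in WT_NP. All 4 groups overlapped widely. Log2 folds were −0.08 (SE 0.0816, adjusted p = 0.551) for LP over NP in KO and 0.02 (SE 0.0814, adjusted p = 1) in WT, with a difference of −0.10 (adjusted p = 0.680). The genotype fold, KO over WT, was −0.01 on LP (adjusted p = 0.971) and 0.10 on NP (adjusted p = 0.662).

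Psmb7 (chr2:38588036-38644087, minus strand) had 91.1, 106 and 125 CPM in KO_LP, against 106, 127 and 148 CPM in KO_NP. In wild type it had 103, 114 and 148 CPM in WT_LP, against 110, 118 and 132 CPM in WT_NP. All 6 KO_LP libraries lay below the KO_NP mean, and the groups overlapped. The log2 fold of LP over NP in KO, −0.23 (SE 0.0989, adjusted p = 0.138), was the lowest among the 38 genes, while in WT it was 0.00 (SE 0.0985, adjusted p = 1). Their difference was −0.23 (SE 0.140, adjusted p = 0.418). Between genotypes, KO over WT was −0.15 on LP (adjusted p = 0.407) and 0.08 on NP (adjusted p = 0.758). Limma voom with quality weights called Psmb7 for the diet in KO (log2 fold −0.28, adjusted p = 0.0472).

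The beta ring gene with the smallest p in that comparison was Psmb3, a structural subunit. It had 70.9, 76.7 and 89.8 CPM in KO_LP, against 85.7, 89.8 and 94.1 CPM in KO_NP. Wild type libraries had 74.5, 84.0 and 94.5 CPM in WT_LP, against 75.2, 88.5 and 93.5 CPM in WT_NP. The groups overlapped, with 5 of 6 KO_LP libraries below the KO_NP mean. Log2 folds of LP over NP were −0.18 in KO (SE 0.0733, adjusted p = 0.116) and −0.04 in WT (SE 0.0730, adjusted p = 1), with a difference of −0.14 (adjusted p = 0.505). KO over WT was −0.10 on LP (adjusted p = 0.447) and 0.04 on NP (adjusted p = 0.848). Voom called it for the diet in KO (adjusted p = 0.0363).

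In the alpha ring, Psma4 had the smallest p. It had 119, 134 and 157 CPM in KO_LP, against 135, 145 and 189 CPM in KO_NP. In wild type it had 121, 145 and 155 CPM in WT_LP, against 129, 156 and 179 CPM in WT_NP. All groups overlapped, and KO_NP 6 was the highest library. Log2 folds were −0.14 in KO (SE 0.0940, adjusted p = 0.349) and −0.15 in WT (SE 0.0938, adjusted p = 1), and their difference was 0.01 (95% interval −0.26 to 0.28, adjusted p = 0.982). Without KO_NP 6 the fold in KO was −0.07. For genotype, KO over WT was −0.03 on LP (adjusted p = 0.882) and −0.04 on NP (adjusted p = 0.889).

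Among the ATPases, Psmc4 had the smallest p. It had 61.3, 62.7 and 77.1 CPM in KO_LP, against 69.7, 73.8 and 81.5 CPM in KO_NP. Among wild type mice it had 61.8, 66.0 and 83.3 CPM in WT_LP, against 68.1, 72.6 and 78.3 CPM in WT_NP. KO_LP 6 stood above the other KO_LP libraries, which all lay below every KO_NP library. Log2 folds of LP over NP were −0.19 in KO (SE 0.0759, adjusted p = 0.0995) and −0.08 in WT (SE 0.0754, adjusted p = 1), with a difference of −0.11 (adjusted p = 0.62). The KO over WT fold was −0.08 on LP (adjusted p = 0.579) and 0.03 on NP (adjusted p = 0.889). Voom called Psmc4 for the diet in KO (adjusted p = 0.0297). Psmc5, Psmc3 and Psmc1 had folds of −0.20, −0.14 and −0.16 in that comparison.

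In the lid and base of the cap, the non-ATPase with the smallest p was Psmd13, a lid subunit. It had 79.8, 92.0 and 111 CPM in KO_LP, against 97.7, 109 and 114 CPM in KO_NP. Wild type values were 87.0, 94.7 and 105 CPM in WT_LP, against 92.5, 106 and 116 CPM in WT_NP. KO_LP libraries fell into a lower set of 3 and a higher set of 3 that reached into the KO_NP range. Log2 folds of LP over NP were −0.21 in KO (SE 0.0829, adjusted p = 0.0992) and −0.13 in WT (SE 0.0825, adjusted p = 1), with a difference of −0.08 (adjusted p = 0.760). KO over WT was −0.04 on LP (adjusted p = 0.841) and 0.04 on NP (adjusted p = 0.859). Voom called it for the diet in KO (adjusted p = 0.0253). Psmd14, the deubiquitinase that strips ubiquitin chains from the substrate, had log2 folds of LP over NP of −0.13 in KO (SE 0.0901, adjusted p = 0.352) and −0.13 in WT (SE 0.0896, adjusted p = 1).

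The assembly chaperones Psmd5, Psmd9 and Psmd10 guide the ATPase ring together and leave the finished particle. Psmd9 had 20.7, 23.4 and 28.0 CPM in KO_LP, against 22.9, 25.7 and 29.8 CPM in KO_NP. Its wild type values were 20.3, 26.5 and 27.7 CPM in WT_LP, against 20.6, 27.3 and 29.3 CPM in WT_NP. All groups overlapped. Its log2 folds were −0.11 for LP over NP in KO (SE 0.105, adjusted p = 0.532), −0.04 in WT (adjusted p = 1), −0.07 for their difference (adjusted p = 0.855), −0.06 for KO over WT on LP (adjusted p = 0.775) and 0.00 on NP (adjusted p = 0.992). The 3 chaperones together had a median of −0.08 for the diet in KO.

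The activators Psme1 and Psme2 form the ring that opens the core without the 19S cap, and their genes neighbour each other on chromosome 14 (Psme1 at chr14:55578123-55581529, plus strand, and Psme2 at chr14:55587441-55591113, minus strand). Psme1 had 65.8, 77.4 and 94 CPM in KO_LP, against 59.2, 64.2 and 65.9 CPM in KO_NP. In wild type it had 55.5, 71.3 and 85.4 CPM in WT_LP, against 60.9, 68.2 and 87.2 CPM in WT_NP. Every KO_LP library lay above the KO_NP mean, and KO_LP 6 was the single KO_LP library inside the KO_NP range. The log2 fold of LP over NP in KO was 0.31 (SE 0.0980, 95% interval 0.11 to 0.51, adjusted p = 0.0541), the smallest adjusted p of any member in any comparison, and it missed the threshold.

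Psme1 was the member nearest to a call. DESeq2 called it (log2 fold 0.29, adjusted p = 0.0378), as did voom (0.31, adjusted p = 0.0200), a filter of at least 5 CPM in 6 libraries and a fit of the 12 KO libraries. The adjusted p ran from 0.0294 to 0.161 as single libraries were left out, with 0.161 and a fold of 0.25 without KO_LP 4, and reached 0.694 with a fold of 0.08 with the surrogate variable. In WT the fold of LP over NP was 0.04 (SE 0.0974, adjusted p = 1), and the difference between genotypes was 0.27 (SE 0.138, adjusted p = 0.337). Between genotypes, KO over WT was 0.13 on LP (adjusted p = 0.449) and −0.14 on NP (adjusted p = 0.597).

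Psme2 had 33.6, 42.9 and 56.7 CPM in KO_LP, against 31.7, 36.1 and 40.7 CPM in KO_NP. Wild type libraries had 31.6, 33.9 and 45.4 CPM in WT_LP, against 29.9, 38.1 and 54.8 CPM in WT_NP. KO_LP 4 was the highest of all libraries, followed by WT_NP 1, and the groups overlapped. The log2 fold of LP over NP was 0.27 in KO (SE 0.124, adjusted p = 0.158) and −0.15 in WT (SE 0.123, adjusted p = 1). Their difference, 0.42 (SE 0.174, 95% interval 0.06 to 0.78, adjusted p = 0.255), was the largest of any of the 38 genes and was not called. For genotype, KO over WT was 0.29 on LP (SE 0.123, adjusted p = 0.168), called by voom alone (0.33, adjusted p = 0.0473), and −0.12 on NP (adjusted p = 0.718). Without KO_LP 4 the diet fold in KO was 0.18, the difference 0.33 and KO over WT on LP 0.20. Without WT_NP 1 the diet fold in WT was −0.03 and the difference 0.30. Without KO_LP 4, WT_LP 3 and WT_NP 1 together the difference was 0.28 (adjusted p = 0.410).

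The copy Psme2b, whose reads cannot be fully separated from those of Psme2, was near the filter at 0.61 to 2.67 CPM in KO_LP and 0.64 to 1.82 CPM in KO_NP. In wild type it had 0.82 to 1.54 CPM in WT_LP and 0.76 to 1.62 CPM in WT_NP. Its log2 folds were 0.53 for LP over NP in KO (SE 0.328, adjusted p = 0.292), −0.02 in WT (adjusted p = 1), 0.55 for the difference (adjusted p = 0.568), 0.48 for KO over WT on LP (adjusted p = 0.402) and −0.08 on NP (adjusted p = 0.948).

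The other activators lay on the opposite side in KO_LP against KO_NP. Psme3, a nuclear relative of the pair, showed a log2 fold of −0.20 (SE 0.0827, adjusted p = 0.118), called by voom (adjusted p = 0.0359) and by edgeR without KO_LP 6. Its lowest, median and highest values were 29.7, 32.1 and 40.8 CPM in KO_LP, against 35.4, 37.4 and 41.0 CPM in KO_NP. In wild type they were 31.0, 38.5 and 45.3 CPM in WT_LP, against 36.0, 39.8 and 42.5 CPM in WT_NP. KO_LP lay low in these ranges and overlapped every other group. On LP it was −0.21 for KO over WT (SE 0.0823, adjusted p = 0.145), called without KO_LP 6. Psme4, a monomeric activator, showed a log2 fold of −0.08 for the diet in KO (SE 0.0797, adjusted p = 0.547).

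**Figure D2:**
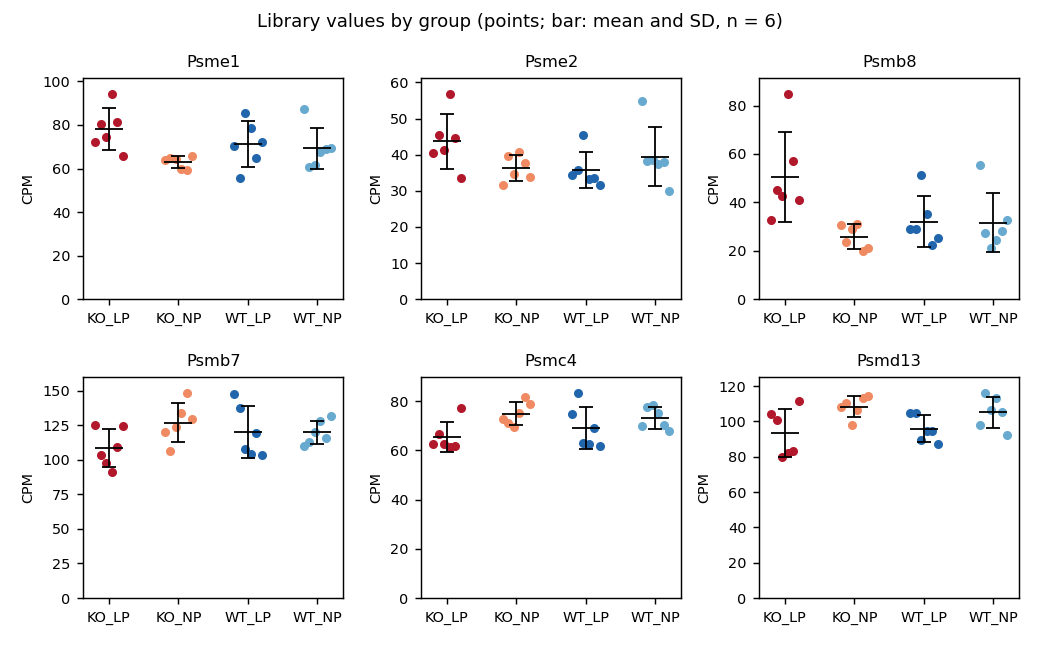
CPM of 6 genes in the 24 libraries (points) by group, with mean and SD (bars, n = 6). Psme1, Psme2 and the immunoproteasome gene Psmb8 are highest on average in KO_LP, and WT_LP 3 and WT_NP 1 are the highest libraries of their groups for each. The Psmb7, Psmc4 and Psmd13 groups overlap with lower KO_LP means.

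The immunoproteasome genes, which the choice of members left out, had larger folds in the same comparison than any of the 38 genes. Psmb8 rose in KO_LP, with a lowest, median and highest value of 32.6, 43.9 and 84.6 CPM in KO_LP, against 19.8, 26.2 and 31.1 CPM in KO_NP. These groups did not overlap. Its log2 fold was 0.97 (SE 0.242, adjusted p = 0.0258 by edgeR), and 0.76 without KO_LP 4, where the call was lost (adjusted p = 0.0868), as it was without KO_NP 5 (adjusted p = 0.0661) or KO_NP 6 (adjusted p = 0.0525). It was 0.31 with the surrogate variable (adjusted p = 0.283). Psmb10 rose as well, by 0.56 (SE 0.169, adjusted p = 0.0442), a call that held in 12 of 24 fits that left out 1 library. It was lost without KO_LP 4 (0.42, adjusted p = 0.147) and with the surrogate variable (0.12). Psmb9 showed a log2 fold of 1.0 (SE 0.367, adjusted p = 0.0849), which was 0.75 without KO_LP 4 (adjusted p = 0.247) and called without WT_NP 1 (adjusted p = 0.0496). Psmb8 is the inducible counterpart of Psmb5 (log2 fold −0.09), Psmb9 that of Psmb6 (−0.08) and Psmb10 that of Psmb7 (−0.23). Wild type values of Psmb8 were 22.3 to 51.5 CPM in WT_LP and 21.3 to 55.3 CPM in WT_NP, and KO_LP overlapped both. The mean sum of the 3 genes was 105 CPM in KO_LP, 58.9 in KO_NP, 72.0 in WT_LP and 70.9 in WT_NP. Their median log2 fold was 0.02 for LP over NP in WT and 0.95 for the difference of diet effects. KO over WT was higher for all 3 on LP (median 0.63) and lower for all 3 on NP (median −0.29). EdgeR called none of them in these comparisons.

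Some immune and tubule markers were called in the same comparison. Among 10 macrophage and dendritic cell markers, 4 were called higher in KO_LP, with sums of 544 to 1947 CPM in KO_LP, against 408 to 690 CPM in KO_NP. In wild type these sums were 422 to 1347 CPM in WT_LP, against 438 to 1512 CPM in WT_NP, with 10 of 10 folds above 0 (median 0.32) and none called. Of 8 T and NK cell markers 1 was called higher, with sums of 27.1 to 119 CPM in KO_LP, against 17.1 to 39.5 CPM in KO_NP. The wild type sums were 13.0 to 59.1 CPM in WT_LP, against 23.1 to 71.0 CPM in WT_NP, with 7 of 8 folds below 0 and none called. Of 7 tested B and plasma cell markers none was called, with a median log2 fold of 1.58 and sums of 1352 to 14641 CPM in KO_LP, against 1348 to 2830.5 CPM in KO_NP. The wild type sums of this list were 332 to 2056 CPM in WT_LP, against 862 to 11255 CPM in WT_NP, with 7 of 7 folds below 0 and none called. Of 10 interferon response genes 3 were called higher (Irf1, Gbp2 and Ifit3), with sums of 197 to 423 CPM in KO_LP, against 138 to 191 CPM in KO_NP. Their wild type sums were 141 to 352 CPM in WT_LP, against 166 to 338 CPM in WT_NP, with 7 of 10 folds below 0 and none called. Of 8 proximal tubule markers, Slc34a1 and Slc5a2 were called lower, and the sum was 13853 to 27493 CPM in KO_LP, against 24376 to 37115 CPM in KO_NP. In wild type it was 14549 to 35178 CPM in WT_LP, against 15763 to 27680 CPM in WT_NP, with 3 of 8 folds below 0 and none called. No marker with a row was at 0 in every library of a group. Without KO_LP 4, no gene of these 5 lists was called, and the median log2 fold was 0.65 for macrophage, 0.73 for T and NK cell, 0.62 for interferon and −0.37 for proximal tubule genes. Without KO_LP 4, WT_LP 3 and WT_NP 1 together, 2 macrophage and 3 interferon genes were called higher. Without WT_NP 1 alone, 5 macrophage, 4 T and NK cell, 2 B and plasma cell and 6 interferon genes were called higher and 3 tubule genes lower. Without WT_LP 3 alone, 3 T and NK cell, 1 B and plasma cell and 6 interferon genes were called higher. The part of these cell types in the proteasome folds was not tested.

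Markers of the remaining cell types showed no call in KO_LP against KO_NP. This held for 2 thick ascending limb, 2 distal convoluted tubule, 2 collecting duct and 3 podocyte genes, for Fabp4, the 1 adipocyte gene tested of 3 with a row (log2 fold 0.71, adjusted p = 0.127), and for Star of the adrenal cortex. Adipoq was at most 0.0764 CPM in KO_LP.

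Library by library, after scaling with the library factors, core and cap subunits and the activator pair lay on opposite sides in KO_LP 4, WT_LP 3 and WT_NP 1. The library KO_LP 4 had the lowest median deviation of the 31 core and cap subunits (20S and 19S genes) from their own means over the 24 libraries, −0.21 in log2 CPM. All 31 were below their means there, and 13 had their lowest value of all libraries. KO_LP 4 also had the highest library factor (1.24). Before that scaling, the 41 members took 0.437% of all counts in KO_LP 4, against a KO_LP mean of 0.422%. They took 0.536% of its non-mitochondrial counts, against a KO_LP mean of 0.548%. How low the members lay in KO_LP 4 thus depended on the scaling. The same library had the highest values of Psme1 (94 CPM) and Psme2 (56.7 CPM), the highest sums of immunoproteasome (172 CPM), macrophage (1947 CPM) and interferon (423 CPM) genes, and the lowest sum of proximal tubule markers (13853 CPM).

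KO_LP 5 had a median deviation of −0.15, again with all 31 below their means, and 121 CPM of immunoproteasome genes. In wild type, WT_LP 3 had −0.13 with 113 CPM and WT_NP 1 had −0.08 with 125 CPM, each the library with the most immunoproteasome transcript in its group. This pairing was not general. WT_LP 6 had −0.13 with 58.8 CPM of immunoproteasome genes, and WT_LP 4 had −0.10 with 74.4 CPM. At the upper end, KO_LP 6 had a median deviation of 0.13 with the highest value of all libraries for 7 of the 31 genes, and 79.8 CPM of immunoproteasome genes. KO_LP spanned the whole range of the 24 libraries, −0.21 to 0.13, against −0.04 to 0.12 in KO_NP, −0.13 to 0.12 in WT_LP and −0.08 to 0.12 in WT_NP. Before scaling, the members' share of all counts was 0.431% in WT_NP 1 and 0.411% in WT_LP 3, each the highest of its group. Their share of non-mitochondrial counts was 0.551% in WT_NP 1 and 0.546% in WT_LP 3, against group means of 0.550% and 0.543%. KO_LP 5 had the lowest shares of its group on both measures, at 0.391% and 0.516%.

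**Figure D3:**
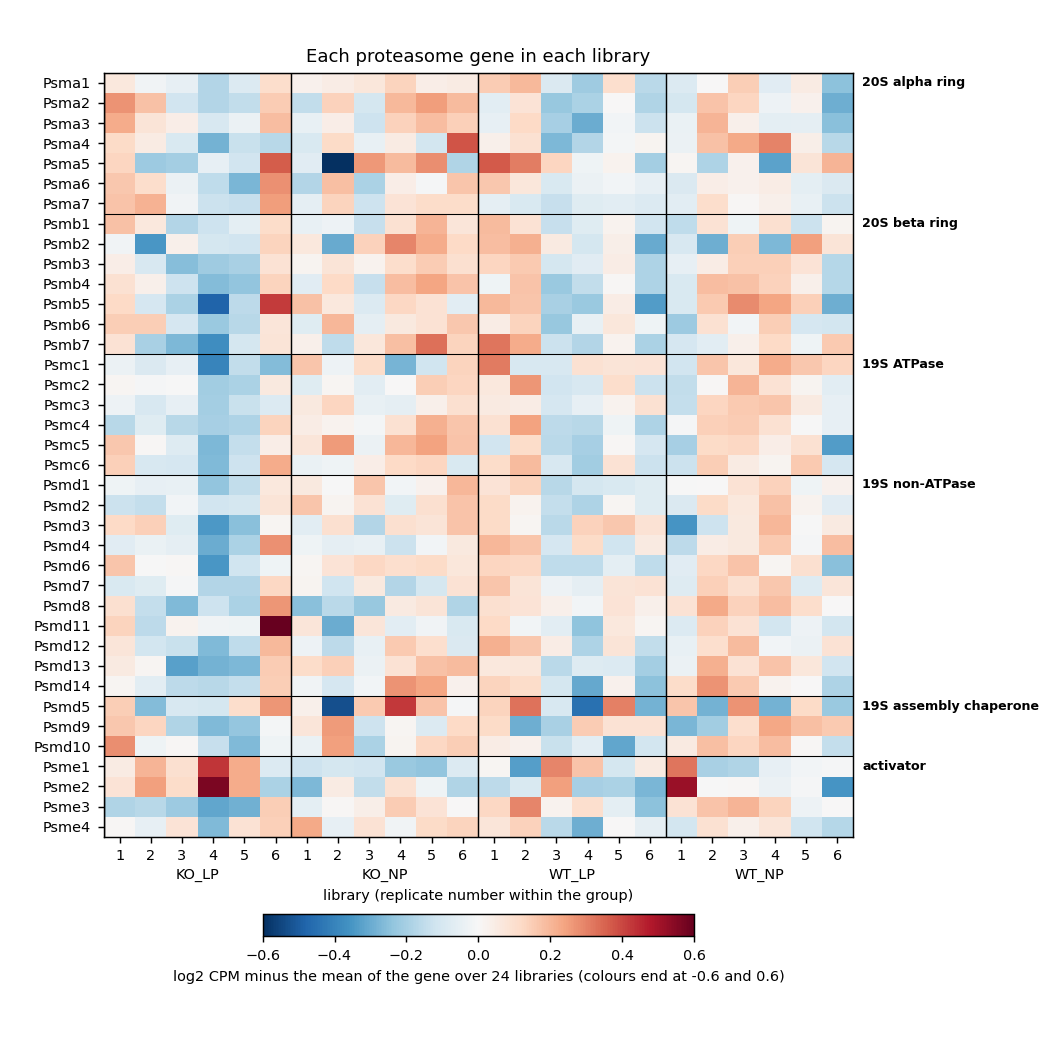
Deviation of each of 38 genes (rows, by role) in each of 24 libraries (columns, by group) from the gene's mean over all libraries, in log2 CPM. Blue columns such as KO_LP 4 and KO_LP 5 cross the core and cap roles together, while Psme1 and Psme2 are red in KO_LP 4 and WT_NP 1. Values are scaled with the library factors.

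**Figure D4:**
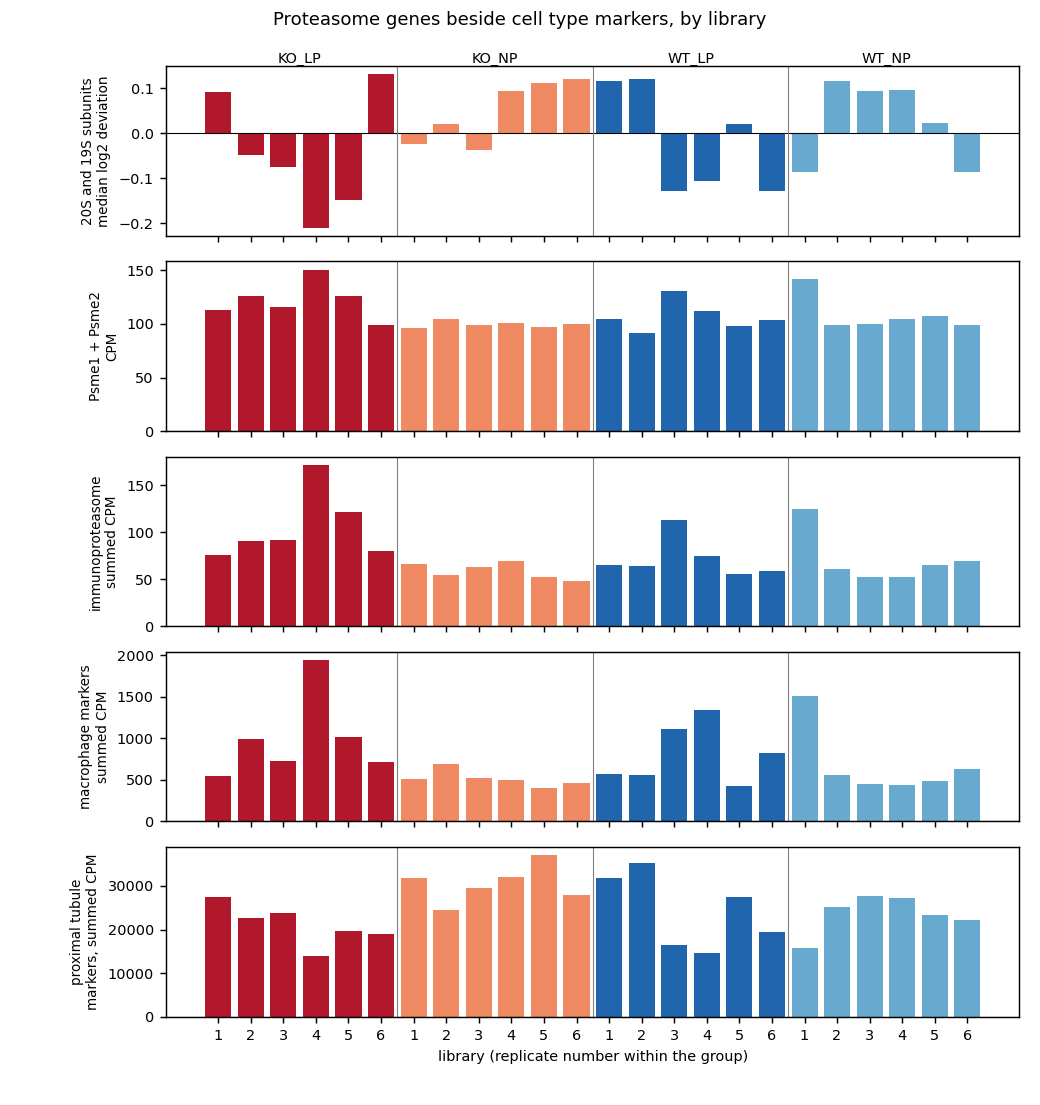
Bars show, for each library, the median deviation of 31 core and cap subunits (log2), and the summed CPM of Psme1 and Psme2, of 3 immunoproteasome genes, of 10 macrophage and dendritic cell markers and of 8 proximal tubule markers. KO_LP 4 is lowest in the first and last panels and highest in the others. WT_NP 1 and WT_LP 3 are the highest of their groups for immunoproteasome genes. All panels are scaled with the library factors.

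In wild type, the low protein diet gave no called member, and 0% of all genes were called by edgeR. No member was below an unadjusted p of 0.05, against 3.82% of all genes. Log2 folds ran from −0.16 (Psmd10, an assembly chaperone) to 0.13 (Psma5), with a median of −0.04, beside −0.01 over all genes, and 27 of 40 were below 0. The median ran from −0.06 without WT_LP 1 to −0.02 without WT_LP 3. Intervals of all 38 genes lay within 1.5-fold, beside 92.8% of genes in the same CPM range. DESeq2 called 0.12% of all genes there, voom 0.0396% and limma on the deposited normalized values 0%, with no member among them.

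The difference between genotypes in the diet's effect was called for no member and for 0% of all genes by edgeR, voom and limma on normalized values, while DESeq2 called 0.635% of genes and no member. At an unadjusted p under 0.05 stood Psme2 alone, against 16% of all genes. The median difference of the members was −0.07, beside 0.03 over all genes. As single libraries were left out, it ran from −0.10 without KO_LP 6 to −0.02 without KO_LP 4 and stayed below 0. It was −0.09 without WT_LP 3, −0.03 without WT_NP 1 and −0.02 without KO_LP 4, WT_LP 3 and WT_NP 1 together. With the surrogate variable it was 0.08, so its sign depended on the fit. For 37 of the 38 genes the interval lay within 1.5-fold, the exception being Psme2, beside 71.6% of genes in the same CPM range.

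On the low protein diet, KO against WT gave no called member, where edgeR called 2.93% of all genes. At an unadjusted p under 0.05 were Psmc1 (log2 fold −0.22), Psme3 (−0.21) and Psme2 (0.29), 3 of 40 against 21.1% of all genes. The ATPase Psmc1 had a lowest, median and highest value of 120, 145 and 153 CPM in KO_LP, against 147, 166 and 195 CPM in WT_LP. All KO_LP libraries lay below the WT_LP mean, and the groups overlapped (SE 0.0872, adjusted p = 0.141). It was named after its value was seen. The median of the members was −0.03, beside 0.02 over all genes. It was near 0 and had no stable sign, at −0.07 without KO_LP 6, 0.00 without KO_LP 4 or WT_LP 2 and 0.05 with the surrogate variable. DESeq2 called 5.79% of genes and limma on normalized values 2.88%, with no member, and voom called 5.78%, with Psme2. Of the 7 tested B and plasma cell markers, 3 were called higher in KO_LP than in WT_LP, 1 without KO_LP 4 and 5 without WT_LP 3. Of the 8 T and NK cell markers none was called there, but 6 were without WT_LP 3. Their part in these folds was not tested.

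On the normal protein diet, KO against WT again gave no called member, where edgeR called 0.574% of all genes, DESeq2 1.35%, voom 0.923% and limma on normalized values 0.561%, none of them a member. At an unadjusted p under 0.05 stood Psmd8 alone, against 12.6% of all genes. Psmd8, a lid subunit encoded on chromosome 7 (chr7:29174188-29180701, minus strand) and named after its value was seen, had 148, 156 and 186 CPM in KO_NP, against 176, 192 and 206 CPM in WT_NP. All 6 KO_NP libraries lay below the WT_NP mean, and the groups overlapped. The log2 fold was −0.23 (SE 0.0807, adjusted p = 0.200). On LP, Psmd8 had 147 to 211 CPM in KO_LP, a range that held all of WT_LP (174 to 188 CPM). The median of the members was 0.03, beside −0.02 over all genes. It ran from 0.01 without KO_NP 5 to 0.05 without KO_NP 3 and was −0.02 with the surrogate variable. Of the 10 interferon response genes, 1 was called lower in KO_NP than in WT_NP, with a median log2 fold of −0.41 over the list, and none was called without WT_NP 1 (median −0.23). On both diets, intervals of all 38 genes lay within 1.5-fold for KO over WT, beside 86.0% of genes in the same CPM range on LP and 88.6% on NP.

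The diet comparisons and the genotype comparisons share libraries, so their folds are not independent. For the diet in KO, the further tools called 1 member of 40 (DESeq2, Psme1, with 11.8% of all genes called), 6 (voom, Psme1 higher and Psmd13, Psmc4, Psme3, Psmb3 and Psmb7 lower, with 11.2%) and 0 (limma on normalized values, with 6.82%).

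The remaining genes of the pathway were called in no comparison. These were 7 tested factors of core assembly and inhibition, 13 factors associated with the proteasome, 4 regulators of subunit genes, 4 ubiquitin genes, 2 ubiquitin-activating enzymes, 8 genes of the p97 segregase pathway, which extracts proteins for degradation, and 2 ligases of muscle wasting. Of the 13 associated factors, 9 were below 0 for the diet in KO, and at an unadjusted p under 0.05 stood 1 higher and 1 lower gene. Zfand5, which binds the proteasome, averaged 42.1 CPM in KO_LP and 35.5 CPM in KO_NP, with a log2 fold of 0.24 for the diet in KO (SE 0.0840, adjusted p = 0.0676). All 6 KO_LP libraries lay above the KO_NP mean, and the groups overlapped.

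Nfe2l1, the factor that raises subunit genes, had a fold of 0.16 (adjusted p = 0.118) and Nfe2l2, the antioxidant factor, 0.22 (adjusted p = 0.123) for the diet in KO. In that comparison 2 of the 4 regulators were above 0 and 2 below, with folds of −0.16 to 0.22 and a median of 0.05. For KO over WT on NP all 4 regulators were below 0, with a median of −0.26 and 3 at an unadjusted p under 0.05, none called. Of all genes tested, 54.2% were below 0 there and 12.6% were at that p. On LP 3 of the 4 were below 0 for KO over WT, with a median of −0.11 and 2 at that p, none called. Of all genes tested, 46.2% were below 0 there and 21.1% were at that p. Among the 4 ubiquitin genes, 2 were below 0 for the diet in KO, and at an unadjusted p under 0.05 stood 1 higher and 1 lower gene. Rps27a had 0.25 (adjusted p = 0.0870). The assembly factor Psmg1 had −0.24 (adjusted p = 0.256) and the inhibitor Psmf1 −0.09 (adjusted p = 0.350). Ufd1 had 0.15 and Faf1 −0.13 in the p97 pathway, Uba1 had −0.06 and Uba6 0.03. The muscle ligase Trim63 had −0.54 (SE 0.233, adjusted p = 0.137) and Fbxo32 0.19 (adjusted p = 0.541).

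Some counts may hold reads of other genes. Within 500 bases of the annotated 3′ end, 21 of 41 members shared 50-base stretches with another gene, and 9 of them with a gene in the table. The annotated 3′ ends of Psme1, Psmb7, Psmc3, Psma3 and Psmc3ip also overlap genes of the table on the opposite strand (Emc9, Nek6, Slc39a13, 3110056K07Rik and Mlx), and whether counting used strand is not given in the sources used here.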

How the data were processed

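RNA from kidney cortex was sequenced as QuantSeq 3′ libraries with forward reads of 50 bases, per the labels, and counts were deposited for 24 libraries. The raw counts per gene are as deposited by the authors. The second deposited table holds a signal, the same counts divided by 1 size factor per library by the authors. GRCm38 and DESeq2 1.22.2 are named in the submitters' processing notes, while the aligner, counter and strand setting are not given there or in the labels. Symbols came from the deposited table for 14208 genes and from GENCODE for 2668, and 45 identifiers had none.

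Raw counts were tested with edgeR 4.0.16 (R 4.3.3) by the quasi-likelihood test, two-sided, after its filter on low counts, which left 15165 genes and removed 1756, and TMM scaling. All 24 libraries entered 1 fit with 4 group means, so the groups share 1 estimate of the spread, and p-values measure the spread between libraries of the labelled mice. The biological coefficient of variation was 19.6%. CPM values are TMM-scaled, deviations in log2 CPM use a prior count of 2, and 95% intervals come from the fit's SE. The depth of the smallest library, 8469102 counts, limits the precision of low genes such as Psme2b. Alternatives used DESeq2 1.42.0, limma 3.58.1 on voom values and on the log2 of the deposited normalized signal plus 1, and sva 3.50.0. The fit was checked on simulated data.

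The members and lists were chosen with earlier results of these data known. Values in all comparisons are given for Psmb5, Psmb6, Psmb7, Psme1 and Psme2, for any called member, and for the member of each role with the smallest p for the diet in KO. Of other pathway lists, the genes called and the 2 with the smallest p are given, except that among the associated factors and the ubiquitin genes 1 of the 2 is not reported here.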

Additional observations from a re-analysis of the deposited data

Results flagged for a closer look

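Single libraries lay far from the others of their group for 10 of 64 gene and group sets, where chance flags about 1 in 20 groups. Sets of the same group share its libraries, so these flags are not independent. An excess over that rate was not tested. WT_NP 1 was high for 5 genes. It had 87.2 CPM of Psme1, where the other WT_NP libraries had 60.9 to 69.4 CPM, and 54.8 CPM of Psme2, where they had 29.9 to 38.5 CPM. It had 55.3 CPM of Psmb8 against 21.3 to 32.9 CPM in the others, 31.9 CPM of Psmb9 against 7.97 to 16.6 CPM, and 37.6 CPM of Psmb10 against 18.1 to 24.5 CPM. WT_LP 3 had 45.4 CPM of Psme2 against 31.6 to 35.8 CPM in the other WT_LP libraries, and 26.4 CPM of Psmb9 against 8.28 to 14.8 CPM.

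In KO_LP, library 4 had 47.6 CPM of Psmb10 against 23.9 to 32.1 CPM in the others, and library 6 had 77.1 CPM of Psmc4 against 61.3 to 66.8 CPM. In KO_NP, library 2 had 25.8 CPM of Psmb10 against 20.4 to 22.2 CPM. WT_NP 1, WT_LP 3 and KO_LP 4 each had the highest summed immunoproteasome CPM of their group.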

How the results depend on the processing

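For the diet in KO, edgeR called 0 members, while the DESeq2 test, a filter of at least 5 CPM in 6 libraries and a fit of only the 12 compared libraries each called 1 (Psme1), and voom with quality weights called 6. Leaving out 1 library at a time gave 0 to 2 calls: Psme1 without KO_LP 1, KO_LP 6, WT_LP 2, WT_LP 3 or WT_NP 1, and also Psme3 without KO_LP 6. For KO against WT on LP, voom called 1 (Psme2), and leaving out 1 library gave 0 to 1 (Psme3 without KO_LP 6). In the other 3 comparisons no alternative run called a member. With the surrogate variable, the median fold of the members for the diet in KO was 0.04, against −0.08, and the diet fold in KO was 0.08 for Psme1 and 0.05 for Psme2; the cause was not tested. Leaving out KO_LP 4, WT_LP 3 and WT_NP 1 together, a choice made after seeing the data, called 0 members and gave diet folds in KO of 0.24 for Psme1 and 0.17 for Psme2, while Psmb8 (0.76, adjusted p = 0.0155) and Psmb10 (0.41, adjusted p = 0.0327) were called by edgeR. The diet folds of Psmb8 and Psmb10 in KO, both called by edgeR, kept their sign in all alternatives run. No paired analysis was possible because the labels give no shared replicate numbers, and the numbers used here only name libraries in accession order. Depth limits what can be said of Psma8 and Psme2b, which had few counts.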
